A study of Mus musculus with 4 samples.

Results

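The 9 genes described here, Cdh1, Epcam, Perp, Jup, Dsp, Sfn, Grhl3, Tfap2a and Cldn6, code for junction proteins, a barrier protein and transcription factors of epithelium, with keratins left out. Each was followed through every tag that the deposited table gives to its Ensembl identifier, and together they make up 9 of 26252 genes and clusters with a tag. The RNA came from dissected limbs of CD1 mice, an outbred strain, at stage E14.5 of embryonic development, with 2 biological replicates of forelimb and 2 of hindlimb. The labels name no genotype, treatment or batch, and do not say how many embryos a sample held. Limbs contain skin, muscle, cartilage, vessels and blood together, so fewer epithelial cells and less RNA per epithelial cell cannot be told apart.

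At this stage the limb is covered by a thin epidermis that is starting to stratify, with a transient outer layer called periderm. Its cells are held together by adherens junctions, in which cadherins are linked to actin by catenins, and by desmosomes, in which desmosomal cadherins are linked to keratin filaments by plakoglobin (Jup) and desmoplakin (Dsp). Tight junctions made of claudins seal the sheet near its surface. Transcription factors of the grainyhead and AP-2 families control junction and barrier genes in this tissue.

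In digital gene expression by SAGE a transcript is not sequenced along its length. The enzyme NlaIII cuts cDNA at CATG, and the 17 bases that follow the most 3′ of these sites are counted as a tag, so that counts do not grow with transcript length. A gene nevertheless has several tags, from other polyadenylation sites or from incomplete digestion. The 9 genes had 96 tags in the table, of which 94 had a count and 55 had at least 10 counts over the 4 libraries. Of these 55, 48 matched 1 gene in the GENCODE M21 transcripts, 4 tags of Sfn matched several genes and 3 matched no transcript there.

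The tags below are those the values of 6 of the genes turn on: for Jup, Epcam and Dsp tags that differ in base composition, and for Cdh1, Perp and Sfn the most abundant tag. Each is printed 5′ to 3′ without the CATG before it, with G and C in capitals. Positions are on GRCm38, from GENCODE M21.
Jup, 3′ UTR at the last site, chr11:100370751-100370767, minus strand: GGtttGGGGGCGGGGGt
Jup, 3′ UTR at the site before, chr11:100372302-100372318, minus strand: CtGGCCtaGCCaGCtCC
Jup, coding exon, chr11:100372383-100372399, minus strand: CaCatGGaCCtGGatGG
Epcam, coding exon, chr17:87646266-87646282, plus strand: CaGGGCCtCaCGGCCGG
Epcam, 3′ UTR at the last site, chr17:87650942-87650958, plus strand: tGCataattaaGataat
Dsp, coding exon, chr13:38197774-38197790, plus strand: tCaGCCCCaGGCtCCCG
Dsp, 3′ UTR at the last site, chr13:38198185-38198201, plus strand: ttttGatCaattCtCtG
Cdh1, 3′ UTR at the last site, chr8:106670093-106670109, plus strand: taatGttGCtaGaGtGa
Perp, 3′ UTR at the last site, chr10:18856885-18856901, plus strand: CaaGtGGaaaatttGGG
Sfn, 3′ UTR at the last site, chr4:133600571-133600587, minus strand: CtaCCaCtCaataaaGt
The number of G or C bases among the 17 ran from 3 in the last-site tag of Epcam to 14 in its coding tag, and was 13 in the last-site tag of Jup.

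Hindlimb was compared with forelimb by edgeR's quasi-likelihood test over all 13718 tested genes, with p-values adjusted over all of them and a threshold of 0.05. Jup was higher in hindlimb and was the 1 gene of the 9 to pass. The other 8 did not pass, with log2 fold changes, hindlimb over forelimb, from −0.58 for Tfap2a to 1.003 for Perp. Over all genes 16.7% were called, 9.58% toward hindlimb and 7.08% toward forelimb, so that 1 call among 9 genes is near the background. The median log2 fold change of the 9 was −0.04, against −0.03 over all genes. The limb types did not overlap in 7 of the 9, with hindlimb above in 4 and forelimb above in 3, but 62.8% of all genes were separated in this way by 2 libraries against 2, 31.4% with hindlimb above. All 9 passed the filter on low counts.

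The libraries held 1829647 counts in forelimb replicate 2 and 4695786 to 5325279 counts in the others. In CPM, counts divided by a TMM-scaled library size and set to a total of 1000000, 1 count was worth 0.618 in forelimb replicate 2 and 0.222 to 0.255 in the others. Limb markers followed the labels: Pitx1 had 3.31 and 1.24 CPM in forelimb and 253 and 303 CPM in hindlimb, and Tbx5 had 18.3 and 14.8 CPM in forelimb and 0.889 and 1.51 CPM in hindlimb. Base composition separated the limb types over the whole table. Of 2261 tested tags with 12 or more G or C bases, 2159 had a log2 fold change above 0, with a median of 2.36. The median was −0.93 for the 12073 tags with 6 or fewer. Values are therefore also given with a tag-sequence offset, a correction per library for tag base composition. It is fitted from how the tags of a gene differ from each other, so that the level of the gene does not enter the fit. For a gene the corrections of its tags are averaged, weighted by their counts over the 4 libraries. The counts of the gene therefore enter the size of its correction. With it 0.153% of all genes were called, 0.0875% toward hindlimb and 0.0656% toward forelimb. None of the 9 genes passed edgeR's test with the offset (0 calls). In that test 2 of the 9, Epcam and Perp, had an unadjusted p under 0.05, where 9.94% of all genes did. DESeq2 was not run with the offset. The limb types were then separated in 5 of the 9, where 41.7% of all genes were. Without the offset DESeq2 called 2 of the 9, Jup and Perp, against 19.5% of all genes.

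**Figure D1:**
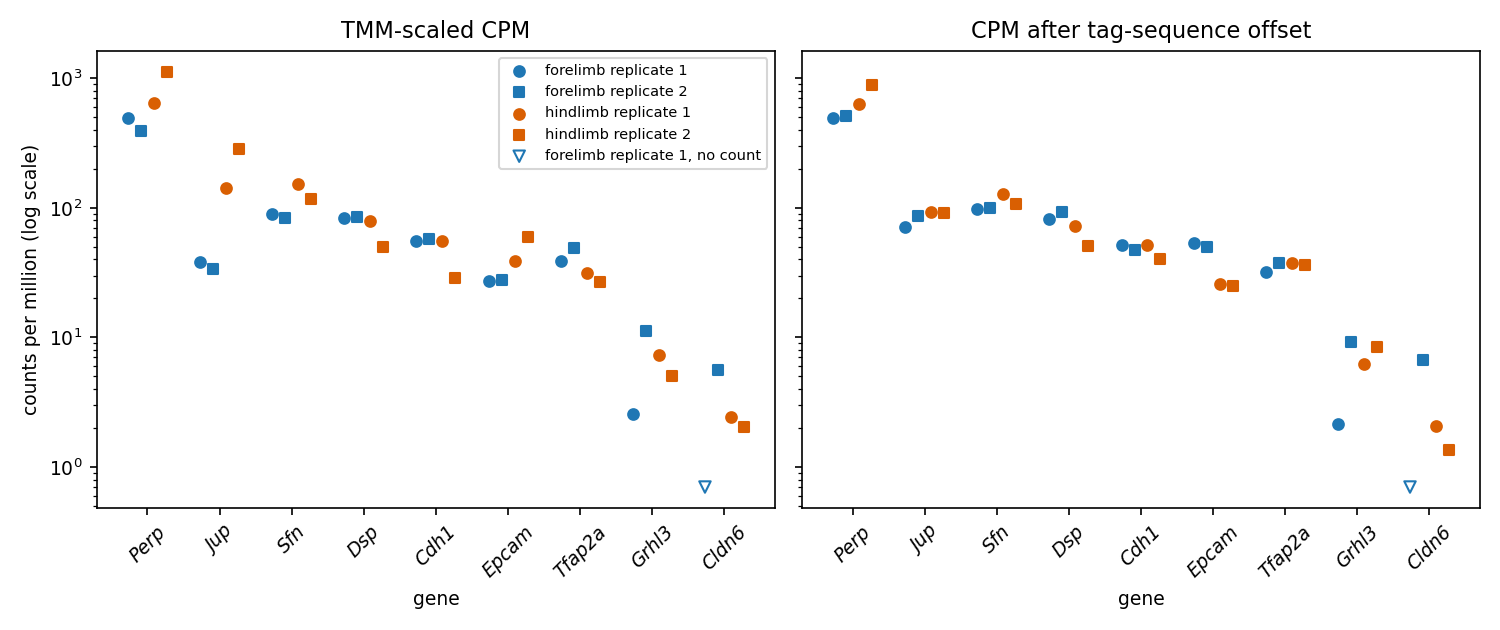
CPM (log axis) of the 9 genes in each of the 4 libraries, TMM-scaled on the left and after the tag-sequence offset on the right; blue is forelimb, orange hindlimb, circles replicate 1 and squares replicate 2, and the open triangle marks a library with no count. Jup lies between 34.0 and 287 CPM on the left and between 71.3 and 93.5 CPM on the right.

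Jup (ENSMUSG00000001552), on chromosome 11 from 100368958 to 100397763, is plakoglobin, a catenin found in both desmosomes and adherens junctions. It had 37.9 and 34.0 CPM in forelimb replicates 1 and 2, from 149 and 55 counts, and 143 and 287 CPM in hindlimb replicates 1 and 2, from 641 and 1138 counts. Both hindlimb libraries stood well above both forelimb libraries, and they differed from each other by more than the forelimb libraries did. The means were 36.0 ± 2.80 CPM in forelimb and 215 ± 102 CPM in hindlimb (SD, n = 2 each), and the log2 fold change with its SE was 2.57 ± 0.38 with a 95% interval of 1.77 to 3.37 (edgeR, adjusted p = 0.000604). The call held without any 1 of the 4 libraries, at 1.99 to 2.97, and the value was 4.07 from the most abundant tag alone.

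The excess of Jup in hindlimb lay in its tags rich in G and C. The last-site tag, with 13 G or C bases, had 14.52 and 3.09 CPM in forelimb against 104 and 232 CPM in hindlimb (4.12 ± 0.70 SE on the log2 scale; edgeR adjusted p = 0.0212 over 37805 tested tags). The call held when a library was left out, with values from 3.44 without forelimb replicate 2 to 5.75 without forelimb replicate 1. It ended with the tag-sequence offset, at 1.77 (adjusted p = 0.52). The tag of the next site upstream, with 12, had 11.97 and 11.7 CPM in forelimb and 30.01 and 34.5 CPM in hindlimb (1.43 ± 0.48 SE, adjusted p = 0.0898). The coding tag shown above, with 10, went the other way without passing, at 5.60 and 9.89 CPM in forelimb and 4.89 and 4.29 CPM in hindlimb (−0.72 ± 0.68 SE, adjusted p = 0.519). The remaining tested tag, with 9, had 4.07 and 6.80 CPM in forelimb and 2.45 and 12.1 CPM in hindlimb (0.44 ± 0.84 SE, adjusted p = 0.771). The log2 fold changes of the tested tags of Jup were thus of either sign, and only that of the last-site tag passed. Summed over tags with fewer than 12 G or C bases, Jup had 11.5 and 19.2 CPM in forelimb and 8.45 and 18.4 CPM in hindlimb, and the limb types overlapped.

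The last-site tag held 38.3% of the counts of Jup in forelimb replicate 1 (Wilson 95% interval 30.8% to 46.3%) and 9.09% in forelimb replicate 2 (3.95% to 19.6%). It held 73.0% in hindlimb replicate 1 (69.4% to 76.3%) and 80.9% in hindlimb replicate 2 (78.5% to 83.1%). Reads were not marked by molecule, so these intervals cover counting error only. The test of tag usage, diffSpliceDGE in edgeR, gave Jup an adjusted p of 0.0639 over 4 tags. With the tag-sequence offset Jup stood at 71.3 and 86.6 CPM in forelimb and 93.5 and 91.3 CPM in hindlimb, and its log2 fold change was 0.25 ± 0.24 (SE; 95% interval −0.25 to 0.75; adjusted p = 0.776). With an offset for GC percent alone it was 0.47 (adjusted p = 0.292). The call of Jup therefore ended under both corrections.

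**Figure D2:**
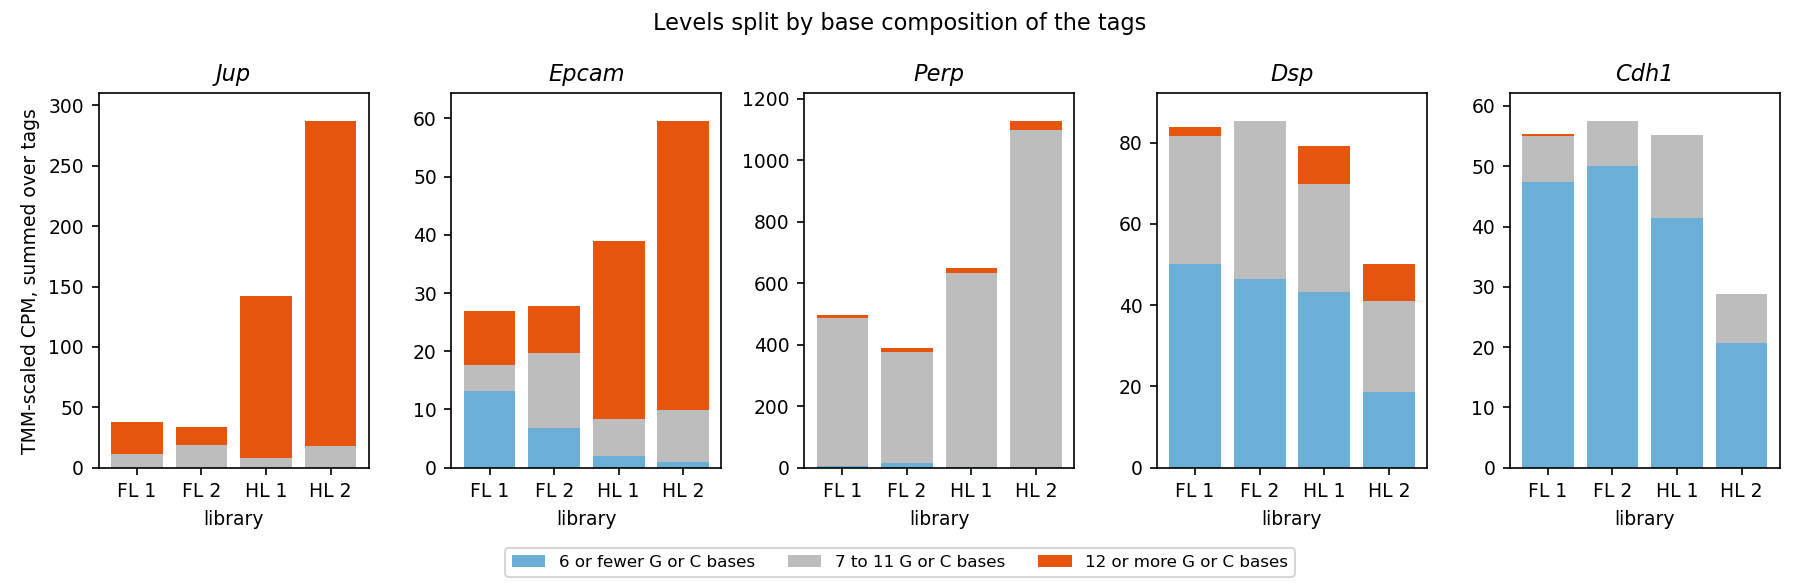
TMM-scaled CPM of Jup, Epcam, Perp, Dsp and Cdh1 in forelimb (FL) and hindlimb (HL) replicates 1 and 2, stacked by the number of G or C bases of the tags (blue 6 or fewer, grey 7 to 11, orange 12 or more), on a linear axis from 0. The orange part of Jup grows from 26.5 and 14.8 CPM in forelimb to 134 and 268 CPM in hindlimb while the grey part stays between 8.45 and 19.2 CPM.

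Perp (ENSMUSG00000019851, chromosome 10, 18845020 to 18857073), a membrane protein needed for desmosome assembly in stratified epithelia, was the most abundant of the 9. It had 497 and 389 CPM in forelimb and 649 and 1127 CPM in hindlimb, so that both hindlimb libraries were above both forelimb libraries. The log2 fold change was 1.003 ± 0.34 (SE; 95% interval 0.29 to 1.71) and just missed the threshold (adjusted p = 0.0501). It passed under 8 of 16 alternatives, among them DESeq2 (adjusted p = 0.0178), and was 0.56 without hindlimb replicate 2 (adjusted p = 0.36). The 8 include a crossed pairing of the replicates that was chosen after seeing the data. With the offset for GC percent alone Perp passed at 1.19 (edgeR adjusted p = 0.0226). With the tag-sequence offset it did not pass, and the hindlimb libraries remained above, at 631 and 880 CPM against 495 and 514 CPM. This was 0.58 ± 0.21 on the log2 scale (SE, adjusted p = 0.363, unadjusted p = 0.0154).

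The last-site tag of Perp, which has 7 G or C bases, held 76.6% of the counts of the gene. It had 340.5 and 182 CPM in forelimb and 484 and 964 CPM in hindlimb (1.45 ± 0.48 SE, adjusted p = 0.0907). Both hindlimb libraries were above both forelimb libraries in this tag, which did not pass among all tags. Its offset value was 1.11 (adjusted p = 0.565). Set among genes read by their last NlaIII site alone or by their most abundant tag alone, Perp passed at 1.35 (adjusted p = 0.0315) and 1.39 (adjusted p = 0.0310). The next tag in abundance, with 8, had 57.0 and 58.7 CPM in forelimb and 70.9 and 78.2 CPM in hindlimb (0.36 ± 0.40 SE, adjusted p = 0.592). Of the other tested tags of Perp, the lowest, with 5 G or C bases, stood at −2.53 and the highest, with 14, at 2.49. The tag with 14 passed the filter on low counts only through hindlimb, so its sign followed from the filter. The test of tag usage gave an adjusted p of 0.0936 over 10 tags.

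Dsp (ENSMUSG00000054889, chromosome 13, 38151294 to 38198577) is desmoplakin, which ties the desmosome plaque to keratin filaments. It had 83.8 and 85.3 CPM in forelimb and 79.1 and 50.2 CPM in hindlimb. Hindlimb replicate 2 was the low library, and hindlimb replicate 1 was close to forelimb. The log2 fold change was −0.38 ± 0.34 (SE; 95% interval −1.10 to 0.33; adjusted p = 0.467). The offset moved it to −0.50 (adjusted p = 0.545).

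A pair of Dsp tags, 804 and 393 bases from the end of the transcript, had fold changes of opposite sign without the offset. The coding tag of this pair passed the filter on low counts only through hindlimb, so its sign without the offset followed from the filter. The coding tag with 13 G or C bases had 5 and 0 counts in forelimb and 40 and 36 counts in hindlimb, or 1.27 and 0 CPM against 8.89 and 9.08 CPM (3.41 ± 0.98 SE, adjusted p = 0.0655). The 0 of 138 counts in forelimb replicate 2 allow a share of up to 2.17% (3 counts), against 11.2% of the counts of Dsp in hindlimb replicate 1 (Wilson 8.36% to 14.9%) and 18.1% in hindlimb replicate 2 (13.4% to 24.0%). The last-site tag, with 5, had 43.5 and 43.3 CPM in forelimb and 42.5 and 18.7 CPM in hindlimb (−0.51 ± 0.50 SE, adjusted p = 0.539). Neither tag passed, and the tag usage of Dsp did not either (adjusted p = 0.103 over 8 tags). With the tag-sequence offset the coding tag stood at −0.56 (edgeR adjusted p = 0.917) and the last-site tag at −0.18 (adjusted p = 0.925), the same sign.

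Cdh1 (ENSMUSG00000000303, chromosome 8, 106603351 to 106670246) is E-cadherin, the adhesion molecule of epithelial adherens junctions. It had 55.3 and 57.5 CPM in forelimb and 55.1 and 28.7 CPM in hindlimb. Hindlimb replicate 1 lay at the level of forelimb and hindlimb replicate 2 below it, the pattern also seen in Dsp. The log2 fold change was −0.42 ± 0.38 (SE; 95% interval −1.21 to 0.37; adjusted p = 0.474). After the offset it was −0.11 and the limb types overlapped. Its last-site tag, with 6 G or C bases, made up 75.7% of its counts, at 45.8 and 46.96 CPM in forelimb and 40.02 and 18.4 CPM in hindlimb (−0.67 ± 0.49 SE on the log2 scale, adjusted p = 0.401). The other tested tag, with 9, was nearly level between limb types at 4.58 and 4.94 CPM in forelimb and 4.002 and 4.29 CPM in hindlimb. Cdh1 thus held no abundant tag rich in G and C, and its 4 remaining tags with at least 10 counts, with 6 to 9 such bases, were too low to be tested.

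Epcam (ENSMUSG00000045394, chromosome 17, 87635979 to 87651129), an epithelial cell adhesion molecule that also stabilizes claudins, had 27 and 27.8 CPM in forelimb and 38.9 and 59.5 CPM in hindlimb. The hindlimb libraries were both higher, yet the log2 fold change of 0.84 ± 0.38 (SE; 95% interval 0.05 to 1.64) did not pass (adjusted p = 0.129). Its tags split. The coding tag with 14 G or C bases had 9.17 and 8.03 CPM in forelimb and 27.8 and 47.1 CPM in hindlimb, and was called higher in hindlimb (2.10 ± 0.52 SE, adjusted p = 0.0460). This call ended, at 1.77 to 2.22, with library totals in place of TMM, with replicate number as a block (adjusted p = 0.107) and when either forelimb library or hindlimb replicate 2 was left out. The last-site tag with 3 had 13.2 and 6.80 CPM in forelimb against 2.001 and 1.01 CPM in hindlimb (−2.73 ± 0.79 SE, adjusted p = 0.0648). This tag passed the filter on low counts only through forelimb, so its sign without the offset followed from the filter. A coding tag with 10, upstream of both, had 4.33 and 12.98 CPM in forelimb and 6.45 and 8.82 CPM in hindlimb, with overlapping limb types. The fourth, with 14 like the main coding tag, was too low to be tested, at 1 and 0 counts in forelimb and 10 in each hindlimb library.

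Within Epcam the coding tag held 34.0% and 28.9% of the counts in forelimb (Wilson 25.6% to 43.4% and 17.7% to 43.4%) and 71.4% and 79.2% in hindlimb (64.3% to 77.6% and 73.6% to 83.9%). The last-site tag held 49.1% and 24.4% in forelimb (39.7% to 58.4% and 14.2% to 38.7%) and 5.14% and 1.69% in hindlimb (2.73% to 9.48% and 0.661% to 4.28%). Epcam was the 1 of 7 genes with at least 2 tested tags whose tag usage was called (diffSpliceDGE adjusted p = 0.0274), where 10.4% of 8694 genes were called. It too ended with the block and without either forelimb library or hindlimb replicate 2.

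The direction of Epcam depended on the reading. From its last NlaIII site alone, in the same test over 9776 genes, it was higher in forelimb (−2.82 ± 0.81 SE, adjusted p = 0.0199). This reading passed the filter on low counts only through forelimb, so its sign followed from the filter. From its most abundant tag it was higher in hindlimb (2.03 ± 0.55 SE, adjusted p = 0.0144). With the tag-sequence offset it stood at 53.7 and 49.97 CPM in forelimb against 25.95 and 24.96 CPM in hindlimb (−1.03 ± 0.29 SE, adjusted p = 0.204, unadjusted p = 0.00239). Without the offset the sign of the limb difference of Epcam thus changed with the tags read, where the sign from the last site was set by the filter. With the offset its 3 tested tags were all below 0 and none passed. The main coding tag stood at −1.10, the coding tag with 10 G or C bases at −1.35 and the last-site tag at −0.62.

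Cldn6 (ENSMUSG00000023906, chromosome 17, 23679249 to 23682446), a claudin of embryonic epithelia and periderm, was the rarest of the 9. It had 0 and 9 counts in forelimb and 11 and 8 counts in hindlimb, or 0 and 5.56 CPM against 2.45 and 2.02 CPM. The forelimb libraries were the lowest and the highest, and 3 counts in forelimb replicate 1 would be 0.764 CPM. A limb difference was not detectable at this depth (log2 fold change −0.09 ± 1.41 SE; 95% interval −3.06 to 2.88; adjusted p = 0.976). Its main tag, GaGCtCtGatCGaCCtC (chr17:23681954-23681970, plus strand, 3′ UTR), held 0 and 5 counts in forelimb and 4 and 8 in hindlimb, too few to be tested.

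Sfn (ENSMUSG00000047281, chromosome 4, 133600556 to 133602168) is stratifin, an adapter protein of differentiating keratinocytes. It had 90.2 and 82.8 CPM in forelimb and 153 and 117 CPM in hindlimb. Both hindlimb libraries were higher, and the log2 fold change was 0.64 ± 0.32 (SE; 95% interval −0.03 to 1.31; adjusted p = 0.176). After the offset it was 0.25 (adjusted p = 0.76) and with the GC offset 0.998 (adjusted p = 0.0283). Tags shared with other genes held 25.2% of its counts, all 4 of them matching the Sfn-like gene model Gm7850 as well. The last-site tag, which matches Sfn alone and has 6 G or C bases, had 74.1 and 42.6 CPM in forelimb and 114 and 88.5 CPM in hindlimb (0.78 ± 0.45 SE, adjusted p = 0.281).

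Among the transcription factors, Grhl3 (ENSMUSG00000037188, chromosome 4, 135541888 to 135573630), a grainyhead factor needed for the skin barrier, was near the limit of detection. It had 10 and 18 counts in forelimb and 33 and 20 in hindlimb, or 2.55 and 11.1 CPM against 7.34 and 5.04 CPM. The forelimb libraries again spanned the hindlimb libraries (log2 fold change −0.04 ± 0.79 SE; 95% interval −1.71 to 1.63; adjusted p = 0.981). Its last-site tag (ttaCatttttatCattt, chr4:135541994-135542010, minus strand), with 2 G or C bases, gave 4 and 9 counts in forelimb and 19 and 12 in hindlimb. Tags that matched no M21 transcript of Grhl3 held 38.3% of its counts. With the tag-sequence offset it was at 0.46 ± 0.76 (SE, adjusted p = 0.889).

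Tfap2a (ENSMUSG00000021359, chromosome 13, 40715302 to 40738376), an AP-2 factor of surface ectoderm and early epidermis, had 39.0 and 48.8 CPM in forelimb and 31.3 and 26.97 CPM in hindlimb. Both forelimb libraries were higher, with a log2 fold change of −0.58 ± 0.37 (SE; 95% interval −1.35 to 0.19; adjusted p = 0.289). With the tag-sequence offset the limb types overlapped, at 31.9 and 37.6 CPM in forelimb and 37.2 and 36.1 CPM in hindlimb (0.09, adjusted p = 0.952). The tag at its last site, chr13:40716046-40716062 on the minus strand (GGGaGaaaaataaaGtt), was its most abundant tag and stood at −1.09 ± 0.77 (SE, adjusted p = 0.376). It had 53 and 28 counts in forelimb and 55 and 8 in hindlimb, so that hindlimb replicate 2 alone was low. A 3′ UTR tag with 9 such bases had 13.2 and 11.1 CPM in forelimb and 4.22 and 5.55 CPM in hindlimb (−1.33 ± 0.60 SE, adjusted p = 0.179), and a tag with 3 went the other way (2.14 ± 1.43 SE, adjusted p = 0.351).

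**Figure D3:**
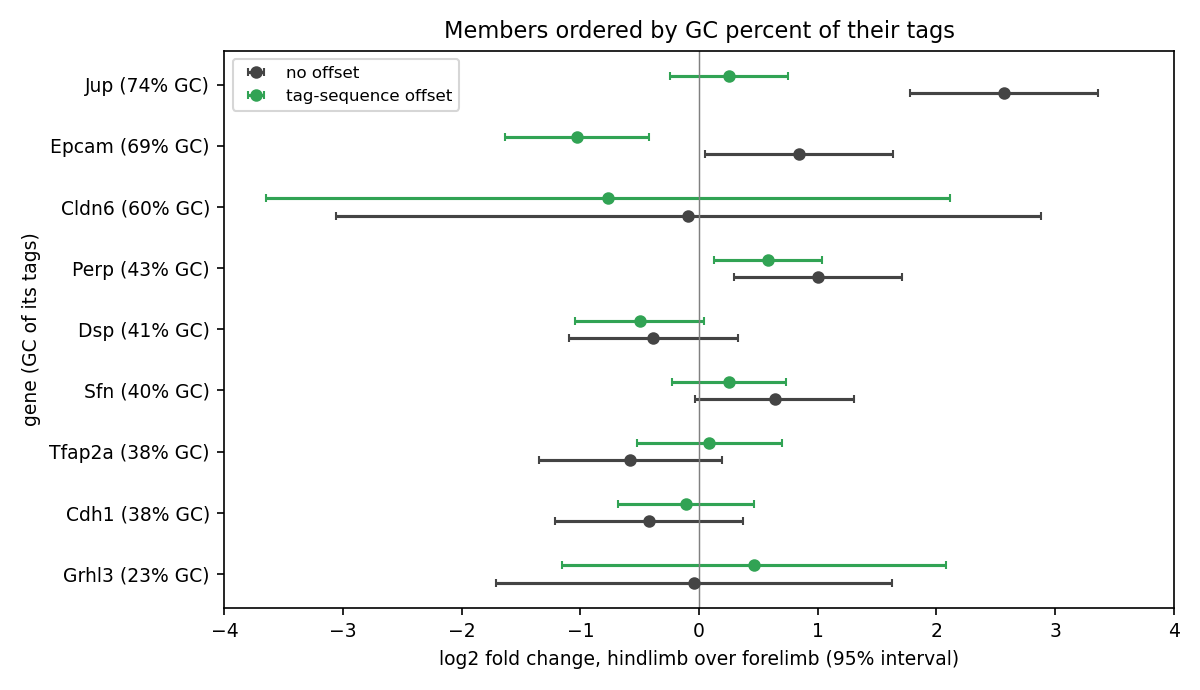
Log2 fold change, hindlimb over forelimb, of the 9 genes with 95% intervals from edgeR, without offset (black) and with the tag-sequence offset (green), ordered by the GC percent of their tags. Jup moves from 2.57 to 0.25 and Epcam from 0.84 to −1.03, while the intervals of Cldn6 and Grhl3 span 0 by more than 1 on either side without the offset.

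By mean level over the 4 libraries the order was Perp at 665 CPM, Jup at 125, Sfn at 111, Dsp at 74.6, Cdh1 at 49.2, Epcam at 38.3, Tfap2a at 36.5, Grhl3 at 6.51 and Cldn6 at 2.51. Perp stood above Jup and Tfap2a above Grhl3 in every library, while the ranges of all other neighbours in this order overlapped. The place of Jup comes from hindlimb: in forelimb its mean of 36.0 CPM lay below those of Sfn (86.5), Dsp (84.5), Cdh1 (56.4) and Tfap2a (43.9). It also rests on its tags rich in G and C, since those with fewer than 12 G or C bases gave at most 19.2 CPM in any library. By base composition the order differed: the tags of Jup held 73.5% G or C, those of Epcam 69.3%, those of Cldn6 59.7%, and those of the other 6 between 22.7% and 43.1%.

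Across the 37 tags of these genes that passed the filter on low counts, the limb difference varied with base composition. All 7 tags with 12 or more G or C bases had a log2 fold change above 0, from 0.41 to 4.12 with a median of 2.10. Of 9 tags with 6 or fewer, 3 were above 0, with a median of −0.67, and of 21 tags between these classes 8 were above 0, with a median of −0.20. The filter asks for a minimum level in 2 libraries, so a tag low in 1 limb type passes only through the other. This held through hindlimb for the Dsp tag with 13 G or C bases, the Perp tag with 14 and the Sfn tag with 12. Their forelimb libraries had at most 1.85 CPM. It held through forelimb for the last-site tag of Epcam, among others. The signs of such tags followed from the filter, so the counts, medians and correlations here are partly set by it. Over the 37 tags Pearson's r of log2 fold change with the number of G or C bases was 0.57 and Spearman's rho 0.50; over all 37805 tested tags they were 0.57 and 0.59. After the offset they were −0.41 and −0.42 over the 37 tags, the opposite sign, and 0.09 and 0.04 over all tested tags. With each gene's own mean removed, r was 0.60 and rho 0.52 over 36 tags of 7 genes. These points share the 4 libraries, and tags of 1 gene share its mRNA, so the correlations are descriptions. Of the 37, 2 tags were called, those of Jup and Epcam given above, both toward hindlimb, where 6.24% of all tested tags were, 4.59% toward hindlimb and 1.64% toward forelimb. After the offset edgeR called 0 of the 37, where 0.0265% of all tested tags were called, 0.0185% toward hindlimb and 0.00794% toward forelimb. Of the 37, 8 had an unadjusted p under 0.05, where 7.44% of all tested tags did, and 29 of 37 lay below 0, where 50.6% of all tested tags did.

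**Figure D4:**
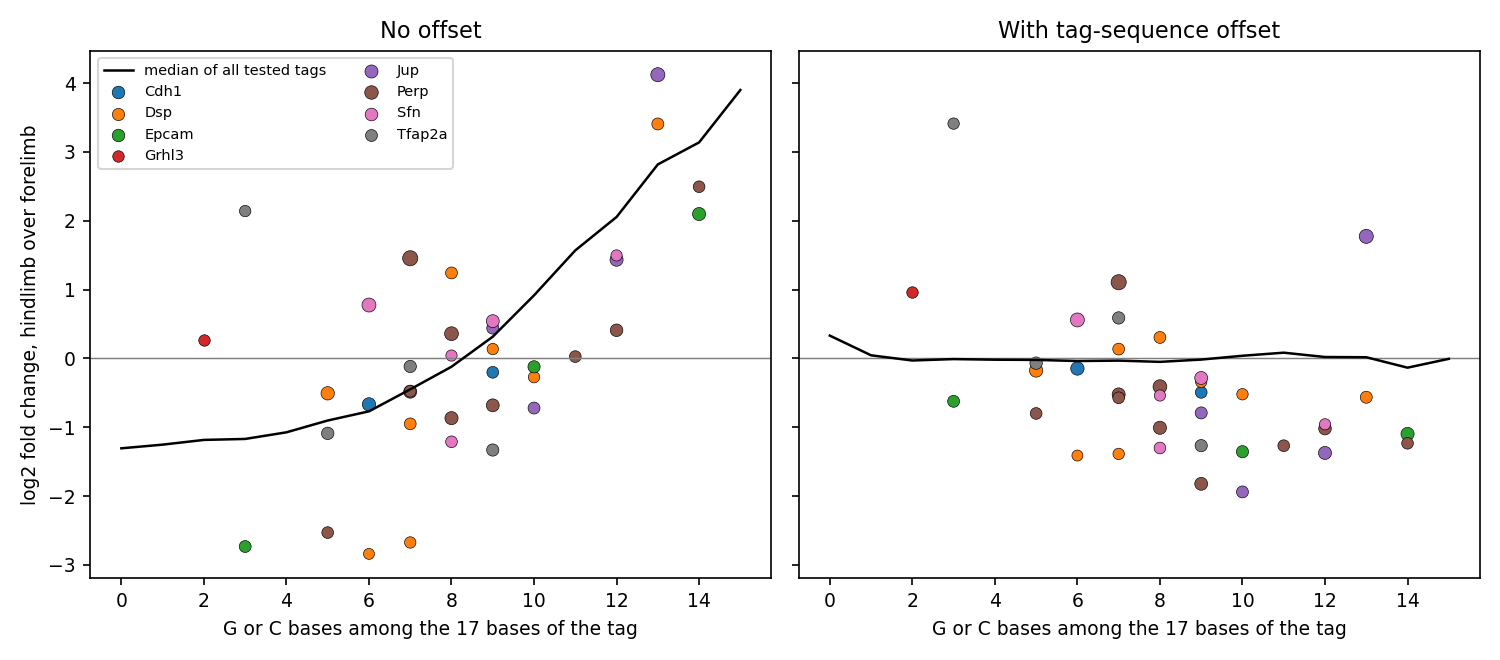
Log2 fold change, hindlimb over forelimb, of the 37 tested tags against their number of G or C bases, without offset on the left and with the tag-sequence offset on the right; colours are genes, larger points have more counts, and the black line is the median of all tested tags in classes of at least 20 tags. Without the offset all 7 tags with 12 or more G or C bases lie above 0, where tags of Dsp, Perp and Sfn passed the filter only through hindlimb. With the offset 29 of the 37 lie below 0.

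The other genes of these structures were read from 6 lists that hold 79 different genes, the 9 included, of which 67 were tested. Of these, 3 passed toward hindlimb and 8 toward forelimb, or 16.4%, where 16.7% of all genes were called; the count is at the background and the calls named below are descriptions of single genes. The medians stood at −0.08 for these 67 genes and at −0.03 for all genes. Of the desmosome list, 13 of 16 genes were tested; Jup was higher in hindlimb, Dsg1a (−1.59), Dsg2 (−2.54) and Dsc2 (−1.54), all desmosomal cadherins, passed toward forelimb, and 9 did not pass (median −0.38). Of 11 adherens junction genes, Jup and Cdh3, which is P-cadherin of basal epidermis (1.67), were higher in hindlimb, and Afdn, an actin-binding scaffold of nectins (−1.38), was higher in forelimb (median 0.53). Of the partners of Jup in the desmosome plaque, the plakophilins Pkp1, Pkp2, Pkp3 and Pkp4 were at −0.63, 1.21, −0.10 and −0.60 and Dsp at −0.38, none passing. Dsg2, called toward forelimb, had 23.7 and 25.95 CPM in forelimb and 7.56 and 0.756 CPM in hindlimb.

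Of 13 tested tight junction genes, Cldn1, the main claudin of the epidermal barrier (−1.13), passed toward forelimb, and the other 12 tested did not pass (median 0.09). Of 15 tested regulators, Grhl1 (−1.36) and Trp63 (−1.15), the master regulator of stratified epithelium, were higher in forelimb (median −0.15). Of 8 tested barrier genes, Krtdap, a keratinocyte differentiation protein (1.32), was higher in hindlimb (median 0.75).

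Tags of the genes called in either direction differed in base composition. The 3 genes called higher in hindlimb, Jup, Cdh3 and Krtdap, had 59.3% to 73.5% G or C in their tags, and the 8 called higher in forelimb 5.51% to 47.7%. With the tag-sequence offset 0 of the 67 were called by edgeR, and the median was −0.20. An unadjusted p under 0.05 was found for 15 of them, or 22.4%, and for 9.94% of all genes; the difference between these shares was not tested. DESeq2, run without the offset, called 6 of the 67 toward hindlimb and 7 toward forelimb, where it called 19.5% of all genes.

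**Figure D5:**
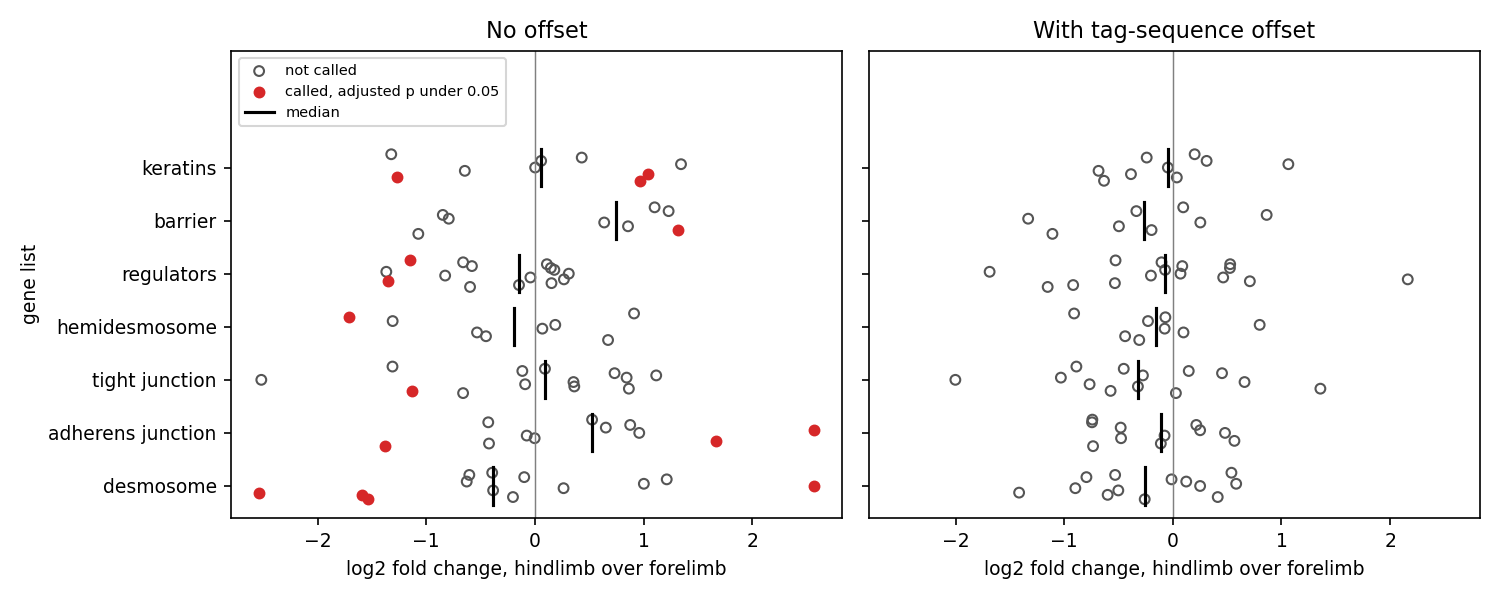
Log2 fold change, hindlimb over forelimb, of the tested genes of 6 lists of epithelial structures and of the keratins, without offset on the left and with the tag-sequence offset on the right; each circle is a gene, filled red where called, and black bars are medians. Calls on both sides of 0 on the left, such as Dsg2 at −2.54 and Jup at 2.57, are absent on the right.

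Markers of the cell types in the samples were set beside these values. The 9 keratins, the structural proteins of the same epithelial cells, all had counts in every library, with a summed level of 1078 and 1179 CPM in forelimb and 1454 and 1849 CPM in hindlimb. Krt14 (1.04) and Krt1 (0.97) were higher in hindlimb and Krt10 (−1.27) higher in forelimb, at 58.4%, 55.4% and 39.9% G or C. The other 6 keratins did not pass, and 16.7% of all genes were called. With the tag-sequence offset 0 of the 9 keratins were called, where 0.153% of all genes were. With the tag-sequence offset the summed keratins were at 1371 and 1675 CPM in forelimb and 1153 and 1154 CPM in hindlimb, the reverse order. The 9 endothelial markers, of cells that also use plakoglobin, summed to 264 and 216 CPM in forelimb and 250 and 298 CPM in hindlimb, and all had counts. They did not move as a group: Pecam1 (2.08) and Cldn5 (2.32) were higher in hindlimb, Cdh5 (−1.16) was higher in forelimb, and 6 did not pass. Over all genes 16.7% were called. With the tag-sequence offset 0 of the 9 were called, where 0.153% of all genes were, and Pecam1 was at 0.14, Cldn5 at −0.10 and Cdh5 at −0.60. The 7 mesenchyme markers summed to 8756 to 9693 CPM in every library. The 8 skeletal muscle markers summed to 2924 and 2465 CPM in forelimb and to 1011 and 1172 CPM in hindlimb, and no marker of these lists was at 0 in any library. With the tag-sequence offset the muscle markers summed to 2298 and 2218 CPM in forelimb and 1173 and 1319 CPM in hindlimb, the same order. Without the offset 4 of the 8 were called, all toward forelimb, where 16.7% of all genes were called and 7.08% toward forelimb. Their median log2 fold change was −1.07. With the offset 0 of the 8 were called, where 0.153% of all genes were. An unadjusted p under 0.05 in edgeR's test with the offset was found for 6 of the 8, and for 9.94% of all genes. The part of the amounts of these cell types in the limb differences of the 9 genes was not tested.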

How the data were processed

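Per the labels' protocols, DGE-SAGE libraries (Illumina tag profiling with NlaIII) were made from total RNA. The authors deposited raw, unnormalized whole-number counts of 733961 tags of 17 bases, each annotated, where assigned, with its UniGene cluster and Ensembl identifier. Bowtie and the build mm9 are named per the submitters' processing notes; the sources used here do not give version or parameters. Counts were summed per Ensembl gene, or per cluster where no gene was given (26252 features, 81.3% to 85.2% of the counts of a library); the rest, 14.8% to 18.7%, stayed out. Tags were matched to the sense strand of GENCODE M21 transcripts next to every CATG. No mm9 coordinates were used.

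The comparison used edgeR 4.0.16 in R 4.3.3 (glmQLFit, glmQLFTest, filterByExpr, TMM, Benjamini-Hochberg at 0.05, no replicate block, with 2 residual degrees of freedom), per gene and per tag; intervals use its moderated degrees of freedom. The tag-sequence offset models base and position, the first dinucleotide and squared GC and purine numbers, fitted per library on 42831 tags with at least 20 counts in 9913 genes or clusters with several such tags. The GC offset is a lowess (span 0.3). Alternatives were DESeq2 1.42.0, library totals, no filter, thinning, other tag choices, a block and leaving out each library. The steps were tested on simulated data. The genes, lists and tests were chosen with earlier results of these data known. Named were the 9 genes, their tags with at least 10 counts, limb markers, and of each list up to 3 called genes by p, or the 2 most abundant where none was called; the plakophilins and the skeletal muscle, mesenchyme and endothelial sums were taken outside this rule. That samples are biological replicates rests on the labels. A result for 1 of the listed genes is not reported here.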

Additional observations from a re-analysis of the deposited data

How the results depend on the processing

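The count of called genes, 2285, was 950 to 3900 when a library was left out (950 without forelimb replicate 2, 1034 without either forelimb replicate 1 or hindlimb replicate 2, and 3900 without hindlimb replicate 1), 853 with the GC offset and 21 with the tag-sequence offset, also when that was fitted without the 9 genes. Of the 9 genes 2 were called with DESeq2 (2265 of 11590 over all genes) and 2 without a filter (2583 of 23162). From tags of 1 M21 gene 2 were called (2025 of 11435), and with the GC offset 2 (853 of 13718). From the most abundant tag 3 of 8 tested were called, all toward hindlimb (2933 of 12483 over all genes). From the last NlaIII site 3 of 8 tested were called, 2 toward hindlimb and 1 toward forelimb (2181 of 9776). With the tag-sequence offset fitted either way 0 were called (21 of 13718). When a library was left out, the log2 fold change of Jup ran from 1.99 to 2.97 and that of Perp from 0.56 to 1.33. Of their tags 1 was called from library totals and 1 with the replicate block, where the shares over all tags are not given here. With the tag-sequence offset 0 were called, where 0.0265% of all tested tags were. When a library was left out, the last-site tag of Jup ran from 3.44 to 5.75 and the main coding tag of Epcam from 1.77 to 2.37. Tag usage was called for 0 of the genes with the replicate block, where the share over all genes is not given here. It was not run with the tag-sequence offset, since diffSpliceDGE takes 1 offset per gene.

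The labels do not pair the replicate numbers, and over 13718 genes the difference between replicates 1 and 2 in forelimb had a correlation of −0.11 with that in hindlimb. With the replicate block 2148 genes and 1 of the 9 were called; with the crossed pairing, chosen after seeing the data, 3170 and 2.

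Values of the other sign were these. Cldn6 was at 0.77 with the replicate block, 0.74 with the crossed block, and −1.30 to 6.22 when a library was left out (6.22 without forelimb replicate 2, 0.05 without hindlimb replicate 2). Grhl3 was at 0.17 with the block, 0.14 with the crossed block, −0.83 to 1.27 when a library was left out (1.27 without forelimb replicate 2, 0.22 without hindlimb replicate 2), 0.15 from the most abundant tag, 0.35 from tags of 1 M21 gene, 0.12 from the last site, 1.02 with the GC offset and 0.46 or 0.47 with the tag-sequence offset. Cdh1 was at 0.0124 with the GC offset. Epcam was at −2.82 from the last site, where it passed the filter only through forelimb. It was at −0.88 with the GC offset and −1.03 with the tag-sequence offset, and its coding tag was then at −1.10. Tfap2a was at 0.0867 or, fitted without the 9 genes, 0.0856 with the tag-sequence offset. The cause of these changes was not tested. Depth limits Cldn6 and Grhl3, with 28 and 81 counts in all.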

Other observations

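A pair of Perp tags in the table differed by 1 base, counted from 1 at the 5′ end of the tag as T7C. The tag GCaGtGtttCttCtCaG matched Perp in M21 and had 224 and 95 counts in forelimb and 319 and 310 in hindlimb. The tag GCaGtGCttCttCtCaG matched no M21 transcript, although the table gives it to Perp, and had 109 and 33 counts in forelimb and 62 and 66 in hindlimb. Its share of the pair was 32.7% and 25.8% in forelimb (Wilson 95% intervals 27.9% to 37.9% and 19.0% to 34.0%) and 16.3% and 17.6% in hindlimb (12.9% to 20.3% and 14.04% to 21.7%). The difference between limb types in this share was not tested.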
